A study of Mus musculus with 12 samples.

Results

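Slc12a8, Ntn4, Usp44, Aqp9, Pdgfb, Pcsk1, Chdh and Cyp2s1 are 8 genes of the 53656 in the count tables. They were picked by symbol because they were low in control thymocytes and much higher after loss of the zinc finger factors Zfp148 and Zfp281 in immature CD4 cells, immature CD8 cells or both. The levels in both populations thus chose the genes, so every value of double knockout against control for these 8 is given as a description, with no test. All 8 passed the filter on low counts, which left 13383 tested genes, and 3 of them (Slc12a8, Ntn4 and Usp44) could pass it only through the knockout libraries. The working name of near-silent genes holds for these 3, which were under 1 CPM (CPM being a gene's share of the library's counts, scaled by the trimmed mean of M-values) in both control groups. It goes against the data for Chdh, at 158.7 ± 18.7 CPM in control ImCD4 (SD, n = 3), and for Aqp9, at 22.1 ± 1.87 CPM there. Pdgfb, Pcsk1 and Cyp2s1 were low but not silent. Their control means ran from 1.52 CPM for Cyp2s1 in ImCD4 to 7.49 CPM for Pdgfb in ImCD8.

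The study sorted mouse thymocytes into 4 groups of 3 libraries each. The double knockout (dKO) groups carry Zfp148 fl/fl, Zfp281 fl/fl and Cd4-Cre, which deletes floxed DNA in developing T cells from the stage at which the Cd4 promoter is active, and the control groups carry the same floxed alleles without Cre. ImCD4 cells were gated as CD44low, CD4+CD8-, H2-Kb- and CD69+, and ImCD8 cells as CD44low, CD8+CD4-, TCRb+ and CD69+; no age is given. Cre is present in dKO cells alone, so its own effects and those of losing the factors cannot be told apart. In the ImCD8 libraries the genotype field is the reverse of the title, and groups here follow the titles. The deleted genes were checked first. In ImCD4, Zfp281 ranged over 16.2 to 21.4 CPM in the dKO libraries and 440.9 to 561.7 CPM in the control libraries, and Zfp148 over 63.0 to 68.9 CPM in dKO and 176.8 to 182.1 CPM in control. In ImCD8, the Zfp281 range was 10.2 to 14.9 CPM for dKO and 112.5 to 127.9 CPM for control, and the Zfp148 range was 45.6 to 62.8 CPM for dKO and 162.4 to 171.0 CPM for control. Every library named dKO in its title was below every control of its population for both genes.

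Gene counts ran from 7315833 to 10943143 per library, so 1 count is worth about 0.1 CPM and the lowest levels below rest on single reads. In ImCD4 depth moved with genotype, with 9319732 to 10943143 gene counts in dKO and 8276742 to 9173424 in control. Mitochondrial genes took 0.633% to 0.961% of gene counts in dKO and 1.08% to 1.31% in control ImCD4, and reads outside any gene were 10.49% to 12.9% in dKO and 13.6% to 16.4% in control ImCD4, also without overlap. Their part in the ImCD4 results was not tested. T cell markers summed to 6399 to 7501 CPM in every library. The 4 CD4-lineage markers summed to 1957 to 2381 CPM in ImCD4 and to 50.9 to 93.7 CPM in ImCD8, and the 4 CD8-lineage markers to 120.6 to 294.5 CPM in ImCD4 and to 4514 to 4792 CPM in ImCD8. The CD4-lineage sum was itself higher in dKO than in control ImCD8, at 72.3 to 93.7 CPM against 50.9 to 65.2 CPM. Cd40lg and Gata3 of that list rose there. Of the CD8-lineage list Runx3 rose in dKO ImCD4 and Itgae fell in dKO ImCD8. Of the T cell list Cd247 fell in dKO of both populations and Cd3g rose in dKO ImCD4. The part of these marker changes in the results below was not tested. Replicate 3 of each group lay apart from the other 8 libraries on the third principal component.

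Zfp148 and Zfp281 are related zinc finger proteins that bind G-rich DNA, and both are known to activate some genes and repress others. None of the 8 genes belongs to the textbook program of the thymocyte. They encode membrane transporters (Slc12a8, Aqp9), secreted proteins and the protease that processes prohormones (Ntn4, Pdgfb, Pcsk1), and enzymes of chromatin, choline and small-molecule metabolism (Usp44, Chdh, Cyp2s1).

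The promoters are shown because the missing factors bind G-rich DNA. RefSeq promoter windows (GRCm38.p6, 250 bases before to 50 after an annotated start) were found for 6 of the 8 genes, 11 windows in all, and searched on both strands for GGGAGGG and for the longer GGGGAGGGG, which contains the shorter. GGGAGGG was in 4 of the 11 windows, in Ntn4, Aqp9, Cyp2s1 and the second listed start of Slc12a8, and GGGGAGGGG was in 1, that of Ntn4. Of all 32851 promoter windows 22% hold GGGAGGG and 6.37% hold GGGGAGGGG, and among windows of tested genes the shares are 27.8% and 8.58%. The stretches with a match follow, each of 30 bases in the direction of transcription, with the match on either strand in capitals. The last line is the window of Slc12a8 before its first listed start, shown because this gene had the largest difference in ImCD8; neither motif was found in that window.
Ntn4, chr10:93640858-93640887, plus strand: ctgcagacacCCCCTCCCCctgggcggcgg
Aqp9, chr9:71163303-71163332, minus strand: atgagctGGGAGGGAGGGAGGGgctgacag
Cyp2s1, chr7:25816549-25816578, minus strand: gccgccccgttCCCTCCCctaactagtccg
Slc12a8, second start, chr16:33518215-33518244, plus strand: acaggcaagaagcagcaaGGGAGGGAGGGa
Slc12a8, first start, chr16:33517078-33517327, plus strand: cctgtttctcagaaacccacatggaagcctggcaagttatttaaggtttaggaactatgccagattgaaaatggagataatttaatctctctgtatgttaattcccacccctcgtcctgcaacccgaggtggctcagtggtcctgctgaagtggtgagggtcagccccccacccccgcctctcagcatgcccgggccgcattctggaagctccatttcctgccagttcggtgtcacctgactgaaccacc
Counted from the RefSeq start, with negative positions before it, the GGGGAGGGG match of Ntn4 spans -181 to -173, on the strand opposite to the gene. The 3 overlapping Aqp9 matches span -36 to -22, the Cyp2s1 match -42 to -36 on the opposite strand, and the 2 overlapping Slc12a8 matches 39 to 49. By the GENCODE M21 gene spans printed below, the 4 stretches with a match all lie inside their genes. A match is a string of letters and not a measured binding site.

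**Figure D1:**
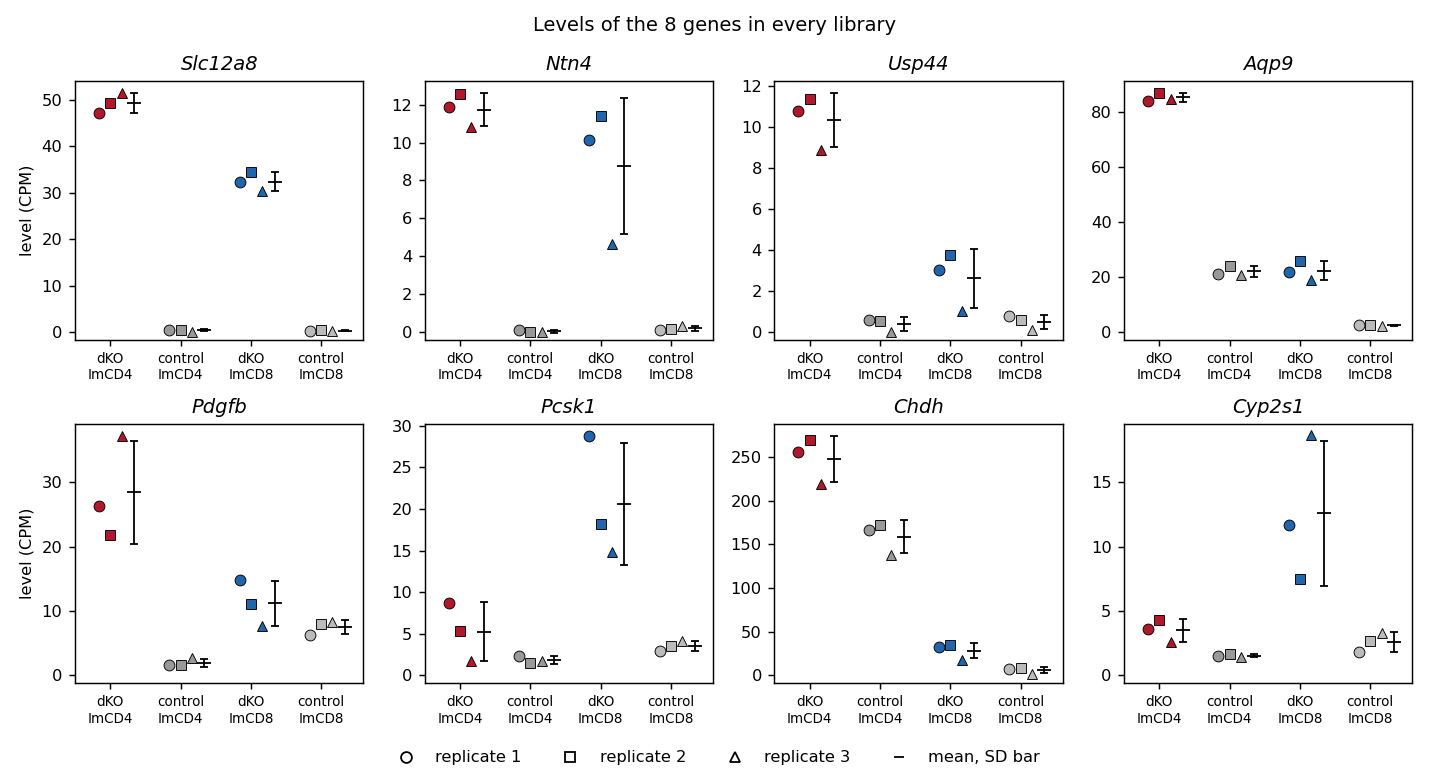
Levels of the 8 genes in CPM (linear axes, each panel with its own scale) in dKO ImCD4, control ImCD4, dKO ImCD8 and control ImCD8; each symbol shape is a replicate, and the bar beside them is the mean with the SD of 3. Slc12a8 and Ntn4 sit at the floor in the 6 control libraries and well above it in the 6 dKO libraries, whereas Chdh starts from over 137 CPM in control ImCD4.

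Among the transporters, Slc12a8 was under 1 CPM in each of the 6 control libraries and over 30 CPM in each dKO library. This gene (ENSMUSG00000035506.16, chromosome 16, 33517328 to 33664135, plus strand) belongs to the family of cation-chloride cotransporters, and in mice its protein has been reported to carry nicotinamide mononucleotide. It measured 47.2, 49.2 and 51.4 CPM in the dKO ImCD4 libraries, against 0.471, 0.442 and 0.106 CPM in the control ImCD4 libraries. The dKO ImCD8 libraries had 32.3, 34.4 and 30.4 CPM, against 0.224, 0.423 and 0.319 CPM in the control ImCD8 libraries. No dKO library came near a control library, and the spread among dKO libraries was 4.31% of the mean in ImCD4 and 6.26% in ImCD8. In counts this was 1524 over the dKO and 9 over the control ImCD4 libraries, a ratio of 147.3 (95% exact interval 77.4 to 322.8). In ImCD8 it was 895 and 8, a ratio of 103.3 (52.2 to 240.0). These intervals, like the others below, cover counting error only. Because sorted populations were measured in bulk, more expressing cells and more RNA per cell cannot be told apart, here or for the other genes.

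Aqp9 (ENSMUSG00000032204.13, chromosome 9, 71110659 to 71168682, minus strand) encodes a channel for water and glycerol that in mouse CD8 T cells takes part in glycerol uptake during memory formation. It was not silent in control cells. The dKO ImCD4 libraries had 84.3, 87.2 and 84.9 CPM, against 21.2, 24.2 and 20.8 CPM in control ImCD4. In dKO ImCD8 it had 21.97, 25.9 and 19.0 CPM, against 2.69, 2.54 and 2.23 CPM in control ImCD8. The ratio of mean levels was 3.88 in ImCD4 and 8.97 in ImCD8. The groups did not overlap in either population, and the dKO ImCD8 level of 22.3 ± 3.49 CPM lay on that of control ImCD4, 22.1 ± 1.87 CPM.

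Of the secreted products, Ntn4 came nearest to an absent transcript in control cells. Netrin-4 (ENSMUSG00000020019.4, chromosome 10, 93640681 to 93747207, plus strand) is a laminin-related protein of basement membranes. The 3 dKO ImCD4 libraries held 133, 131 and 101 counts, against 1, 0 and 0 counts in control ImCD4. The dKO ImCD8 libraries held 80, 124 and 41 counts, against 1, 1 and 3 counts in control ImCD8. In levels this was 11.7 ± 0.876 CPM in dKO ImCD4 and 8.74 ± 3.59 CPM in dKO ImCD8 (SD, n = 3). The ratio of summed counts was 317.5 in ImCD4, with an interval of 56.6 to 12580 that shows how little the single control read fixes, and 45.3 in ImCD8 (19.1 to 140.6). In ImCD8 control replicate 3 held 3 of the 5 control counts, and the fitted log2 fold change of 5.39 ± 0.48 (SE) was 5.99 without it and 6.29 without the 4 libraries apart. The fitted log2 fold change in ImCD4 moved between 7.38 and 9.78 over the alternatives; the upper value is without control replicate 1, where every remaining control count is 0 and the fit sets no bound.

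Pdgfb (ENSMUSG00000000489.7, chromosome 15, 79995874 to 80014977, minus strand), the B chain of platelet-derived growth factor, differed mainly in ImCD4. The dKO ImCD4 libraries had 26.3, 21.7 and 37.2 CPM, against 1.53, 1.55 and 2.65 CPM in control ImCD4, a ratio of mean levels of 14.9. The dKO ImCD8 libraries had 14.7, 11.1 and 7.62 CPM, against 6.28, 7.89 and 8.29 CPM in control ImCD8. The ImCD8 groups overlapped, since dKO replicate 3 lay below 2 of the 3 control libraries, and the fitted log2 fold change of 0.57 ± 0.26 (SE) was 0.78 without that library, 0.86 without the 4 libraries apart and 0.34 without dKO replicate 1.

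Pcsk1 (ENSMUSG00000021587.5, chromosome 13, 75089826 to 75134861, plus strand), the prohormone convertase of neuroendocrine secretory granules, showed the opposite tilt. The dKO ImCD8 libraries had 28.8, 18.2 and 14.8 CPM, against 2.91, 3.52 and 4.15 CPM in control ImCD8, without overlap. In dKO ImCD4 it had 8.74, 5.26 and 1.71 CPM, against 2.36, 1.44 and 1.70 CPM in control ImCD4. Replicate 3 of dKO ImCD4 thus stood within the control range, and the spread of that group, 67.1% of its mean, was the widest of any dKO group of the 8 genes. The fitted log2 fold change in ImCD4 was 1.54 ± 0.51 (SE) with all libraries, 1.94 without this one and 0.96 without dKO replicate 1, the highest.

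Usp44 (ENSMUSG00000020020.8, chromosome 10, 93831555 to 93858088, plus strand) encodes a deubiquitinase that acts on histone H2B and on the mitotic spindle checkpoint. It had 10.8, 11.4 and 8.88 CPM in the dKO ImCD4 libraries, against 0.589, 0.553 and 0 CPM in control ImCD4. In ImCD8 the dKO libraries had 3.05, 3.77 and 1.02 CPM, against 0.784, 0.563 and 0.106 CPM in the control libraries. The groups did not overlap in either population, but in ImCD8 the lowest dKO library held only 9 counts and the highest control library 7. The ratio of summed counts was 28.1 in ImCD4 (15.1 to 59.2) and 5.69 in ImCD8 (3.07 to 11.5). The fitted log2 fold change of 4.75 ± 0.56 (SE) in ImCD4 was 4.16 without control replicate 3, and that of 2.45 ± 0.63 in ImCD8 was 3.06 without control replicate 1.

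Chdh (ENSMUSG00000015970.19, chromosome 14, 30009023 to 30040527, plus strand), the mitochondrial choline dehydrogenase that starts the oxidation of choline to betaine, was an abundant transcript in ImCD4 cells of either genotype. The dKO ImCD4 libraries had 255.4, 269.7 and 219.1 CPM, against 166.4, 172.3 and 137.3 CPM in control ImCD4, a ratio of mean levels of 1.56. In ImCD8 its level was lower, with 31.9, 34.5 and 18.0 CPM in the dKO libraries. The control ImCD8 libraries had 7.51, 8.03 and 1.60 CPM, so the ratio of mean levels was 4.92. It stood above 52.4% of tested genes in dKO ImCD8 and above 28.3% in control ImCD8. Control ImCD8 replicate 3 was far below the other 2, and without it the log2 fold change was 1.86 in place of 2.35 ± 0.42 (SE). The lowest dKO library was above the highest control library in both populations.

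Cyp2s1 (ENSMUSG00000040703.11, chromosome 7, 25802475 to 25816913, minus strand) encodes a cytochrome P450 found mainly outside the liver and known as inducible through the aryl hydrocarbon receptor. It was higher mainly in dKO ImCD8, at 11.7, 7.45 and 18.7 CPM, against 1.79, 2.68 and 3.30 CPM in control ImCD8. In dKO ImCD4 it stayed low, at 3.57, 4.31 and 2.57 CPM, against 1.53, 1.66 and 1.38 CPM in control ImCD4. The groups did not overlap, and the summed counts differed by a ratio of 4.72 in ImCD8 (3.61 to 6.24) and 2.31 in ImCD4 (1.60 to 3.40).

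Each dKO library was above each control library for 7 of the 8 genes in ImCD4, all but Pcsk1, and for 7 in ImCD8, all but Pdgfb. Among all tested genes 18.1% showed this separation in ImCD4 and 10.3% in ImCD8; since the genes were picked for it, nothing is read from the count. Genes called at an adjusted p under 0.05 in either direction were 13.4% of those tested in ImCD4 and 6.14% in ImCD8. The fitted log2 fold changes ran from 0.65 to 7.86 in ImCD4 and from 0.57 to 6.62 in ImCD8. The difference of the log2 fold changes, ImCD8 minus ImCD4, was -3.30 ± 0.41 (SE) for Pdgfb, -2.47 ± 1.34 for Ntn4, -2.30 ± 1.02 for Usp44 and -0.52 ± 0.56 for Slc12a8. It was 1.71 ± 0.50 for Chdh, 1.21 ± 0.20 for Aqp9, 1.07 ± 0.52 for Cyp2s1 and 0.99 ± 0.70 for Pcsk1. Since a gene could enter the set through either population, these differences are descriptions and were not tested.

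**Figure D2:**
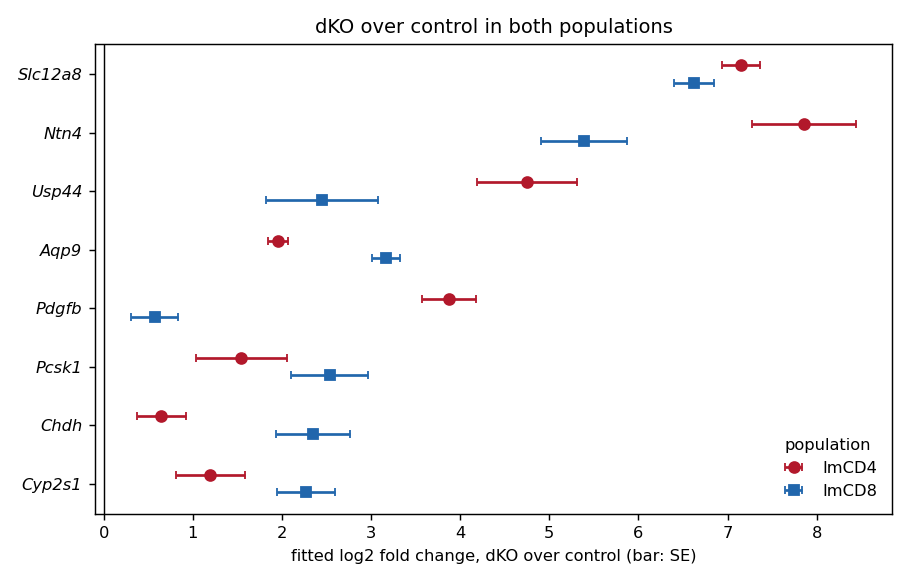
Fitted log2 fold changes of dKO over control for each of the 8 genes, in ImCD4 (circles) and ImCD8 (squares), with bars of 1 SE. Slc12a8 lies far to the right in both populations, Pdgfb at 3.87 in ImCD4 and 0.57 in ImCD8, and Chdh at 0.65 in ImCD4 and 2.35 in ImCD8.

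Per length of exon sequence, the order of levels between the genes also differed by population. In dKO ImCD4 the mean level per kilobase was 39.9 CPM for Chdh, 20.6 for Aqp9, 11.1 for Slc12a8 and 6.83 for Pdgfb. It was 3.14 CPM per kilobase for Ntn4, 2.57 for Usp44, 0.935 for Pcsk1 and 0.705 for Cyp2s1. In dKO ImCD8 Slc12a8 led with 7.28 CPM per kilobase, before Aqp9 with 5.38 and Chdh with 4.52, and Usp44 was last with 0.648. Slc12a8 stood above 58.2% of tested genes in dKO ImCD4 on this scale, and above 0.953% of them in control ImCD4. Pcsk1 in dKO ImCD4 and Cyp2s1 in dKO ImCD4 stayed among the low transcripts, above 14.3% and 11.7% of tested genes. Lengths were taken from GENCODE M21 and may differ from the annotation that was counted.

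The whole table gives the number of genes that were low in control and high in dKO. The genes of the set were chosen by these same levels. That they are among the genes counted here thus follows from the choice, and nothing is read from it. In ImCD4, 3 genes had a control mean under 1 CPM and a dKO mean of at least 5 CPM, out of 15207 genes under 1 CPM in control with a count in some library, and all 3 were Slc12a8, Ntn4 and Usp44. In ImCD8 there were 3 out of 15324: Slc12a8, Ntn4 and Cd163l1, a scavenger receptor gene at 5.24 ± 1.48 CPM in dKO and 0.389 ± 0.373 CPM in control (SD, n = 3). The reverse, at least 5 CPM in control and under 1 CPM in dKO, was met by 7 genes in ImCD4 and 10 in ImCD8. These are out of 9664 and 9813 genes with at least 5 CPM in control. With limits of 2 and 10 CPM, 5 genes were up in ImCD4, among them Pdgfb, and 3 in ImCD8, where Ntn4 no longer met the upper limit. The other gene in ImCD4 and the other 2 in ImCD8 at these limits had clone names. Aqp9, Pcsk1, Chdh and Cyp2s1 met neither pair of limits in either population.

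**Figure D3:**
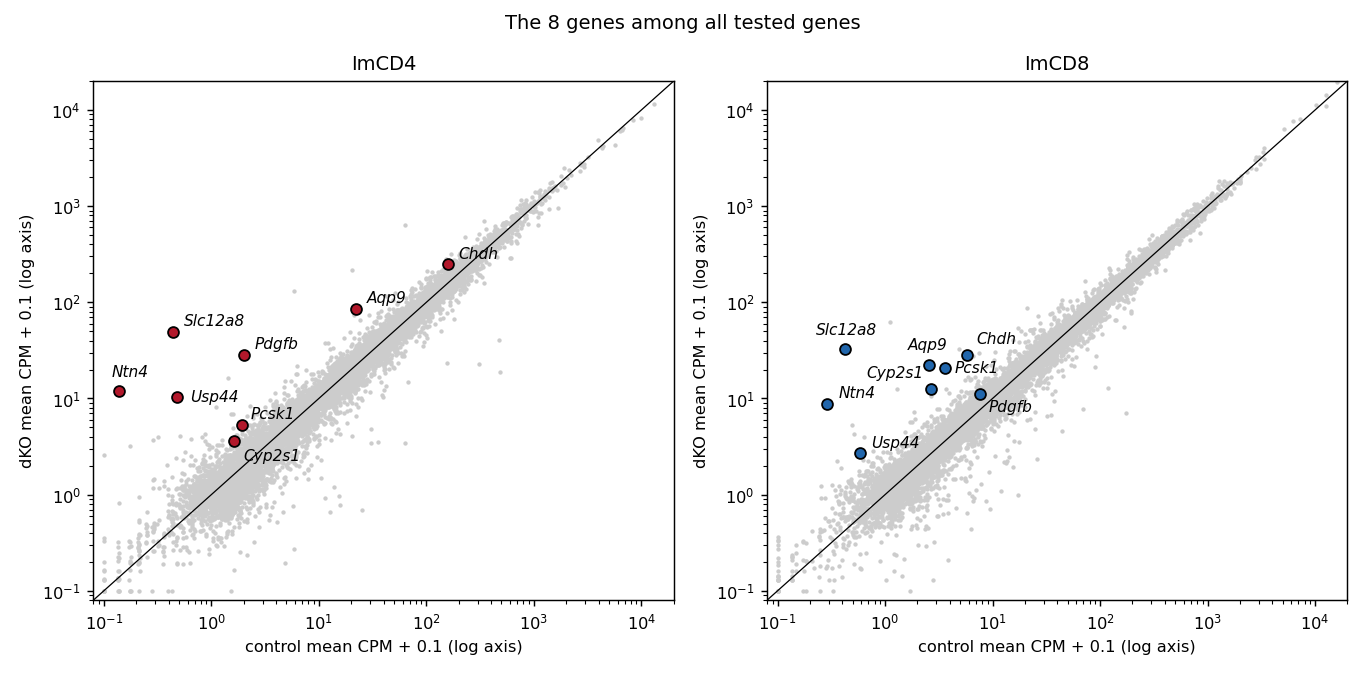
Mean level in dKO (vertical) against control (horizontal) for all tested genes, as CPM plus 0.1 on log axes, in ImCD4 and ImCD8, with the 8 genes marked and equality as the line. Slc12a8, Ntn4 and Usp44 lie above the cloud at control levels under 1 CPM, Chdh lies close to the line in ImCD4, and Pdgfb close to it in ImCD8.

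The lineage contrast in control cells asks whether these genes differ between ImCD8 and ImCD4. The rule did not use this comparison, but it did use low levels in control cells. The adjusted p-values below are thus not free of the choice, and nothing is read from the count of genes that passed. Here 3 of the 8 passed edgeR's quasi-likelihood test with Benjamini-Hochberg adjustment over all genes, against 45.3% of all tested genes. Of the 3, 1 was higher in ImCD8 and 2 were lower, and the shares over all tested genes were 23.1% higher and 22.1% lower. Chdh was 5.71 ± 3.57 CPM in control ImCD8 and 158.7 ± 18.7 CPM in control ImCD4, a log2 fold change of -4.84 ± 0.38 (SE, adjusted p = 4.82e-06). Aqp9 was 2.49 ± 0.232 CPM in control ImCD8 and 22.1 ± 1.87 CPM in control ImCD4, a log2 fold change of -3.15 ± 0.16 (adjusted p = 2.81e-10). Pdgfb was higher in ImCD8, at 7.49 ± 1.07 CPM against 1.91 ± 0.641 CPM in control ImCD4, a log2 fold change of 1.95 ± 0.33 (adjusted p = 0.000245). The other 5 did not pass. For Pcsk1 and Cyp2s1 the log2 fold changes were 0.95 ± 0.55 and 0.76 ± 0.41 (edgeR adjusted p = 0.183 and 0.142), and Pcsk1 passed in 2 of 20 alternatives. Slc12a8, Ntn4 and Usp44 had 8, 5 and 12 counts over the control ImCD8 libraries and 9, 1 and 10 over the control ImCD4 libraries, so that a difference was not detectable at this depth.

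Between dKO ImCD8 and dKO ImCD4 cells the values are again a description with no test, since the dKO levels helped to choose the genes. Pcsk1 was higher in dKO ImCD8, at 20.6 ± 7.33 CPM against 5.24 ± 3.52 CPM in dKO ImCD4, with a log2 fold change of 1.94 ± 0.40 (SE). Cyp2s1 was also higher there, at 12.6 ± 5.65 CPM against 3.48 ± 0.873 CPM in dKO ImCD4, with a log2 fold change of 1.84 ± 0.30, or 1.26 without the 4 libraries apart. The other 6 were lower in dKO ImCD8. Their log2 fold changes were -3.14 ± 0.31 for Chdh, -1.96 ± 0.41 for Usp44, -1.93 ± 0.11 for Aqp9, -0.61 ± 0.11 for Slc12a8 and -0.42 ± 0.26 for Ntn4. Pdgfb, higher in ImCD8 among controls, was lower in ImCD8 among dKO cells, at 11.2 ± 3.56 CPM against 28.4 ± 7.96 CPM in dKO ImCD4. Its log2 fold change was -1.35 ± 0.24, and ran from -1.59 to -0.91 over the 20 alternatives.

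The order of the 4 groups took few forms. Chdh and Aqp9 ran from dKO ImCD4 at the top to control ImCD8 at the bottom, and for Aqp9 the middle groups, dKO ImCD8 and control ImCD4, overlapped. Slc12a8, Ntn4 and Usp44 had both dKO groups above both control groups. Their control groups held too few counts to show whether they differed from each other. Pcsk1 and Cyp2s1 had dKO ImCD8 at the top without overlap with any other group, and their control groups, although they did not overlap, did not pass the test. For Pdgfb dKO ImCD4 stood alone at the top, dKO and control ImCD8 overlapped, and control ImCD4 was lowest.

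Position is a feature that the choice of genes did not use. Slc12a8 begins 12964 bases beyond the end of Zfp148 on the same strand, and is thus the next protein-coding gene downstream of a deleted one (GENCODE M21, mm10). On its far side, 20.2 kb away, Heg1 measured 82.9 ± 3.65 CPM in dKO against 80.1 ± 1.73 CPM in control ImCD4, a log2 fold change of 0.05 ± 0.07 (SE, edgeR adjusted p = 0.684). In ImCD8 Heg1 measured 83.1 ± 1.77 CPM in dKO against 83.0 ± 5.52 CPM in control, a log2 fold change of 0.00 ± 0.07 (edgeR adjusted p = 0.994). Ntn4 and Usp44 are neighbours as well, 84347 bases apart on chromosome 10 on the same strand. The genes that flank this pair, Snrpf and Metap2, did not pass in either population. Metap2, which ends 400 bases from the end of Usp44 on the opposite strand, measured 170.6 ± 9.86 CPM in dKO against 149.9 ± 11.1 CPM in control ImCD4 (log2 fold change 0.19 ± 0.08, edgeR adjusted p = 0.133), and passed there in 1 of 20 alternatives.

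Over the 8 genes the nearest protein-coding genes on either side, leaving out members of the set and Zfp148, numbered 13, and 9 of these were tested. In each population 3 of the 9 were higher in dKO, against 7.26% of all tested genes called higher in ImCD4 and 2.62% in ImCD8. By edgeR none of the 9 was lower, at the adjusted threshold or at an unadjusted p under 0.05, nor by DESeq2. The 3 were Il17rb beside Chdh, Axl beside Cyp2s1 and Rpl3 beside Pdgfb. The median log2 fold change over all 9 was 0.05 in ImCD4 and 0.00 in ImCD8, beside 0.02 and 0.01 for all tested genes.

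Il17rb, which encodes a receptor chain for interleukin-25, begins 126 bases from Chdh on the opposite strand in GENCODE M21, and 4 bases from it in RefSeq. It rose in dKO ImCD4, at 124.4, 113.1 and 128.0 CPM, against 68.9, 80.3 and 65.9 CPM in control ImCD4, with a log2 fold change of 0.76 ± 0.16 (SE, edgeR adjusted p = 0.00857). In dKO ImCD8 it rose to 23.75, 26.6 and 17.6 CPM, against 4.71, 4.51 and 1.595 CPM in control ImCD8, with a log2 fold change of 2.69 ± 0.26 (edgeR adjusted p = 3.48e-05). The values of Chdh beside these were 0.65 ± 0.27 and 2.35 ± 0.42, so that both genes of the pair had the smaller change in ImCD4. Control replicate 3 was lowest of its group for both genes in both populations. At the other end Chdh overlaps Cacna1d, which lies on the opposite strand and had a log2 fold change of -0.55 ± 0.35 in ImCD4 (edgeR adjusted p = 0.336) and -0.02 ± 0.53 in ImCD8 (edgeR adjusted p = 0.994).

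Axl, a receptor tyrosine kinase gene 13.8 kb downstream of Cyp2s1 on the same strand, rose in both populations. It had 37.8 ± 2.24 CPM in dKO against 12.01 ± 1.30 CPM in control ImCD4, a log2 fold change of 1.65 ± 0.15 (SE, edgeR adjusted p = 2.18e-06). In ImCD8 it had 15.8 ± 3.63 CPM in dKO against 6.25 ± 0.520 CPM in control, a log2 fold change of 1.32 ± 0.17 (edgeR adjusted p = 0.000125). The log2 fold changes of Cyp2s1 beside these were 1.20 ± 0.38 and 2.27 ± 0.33. Rpl3, a gene of the large ribosomal subunit 62.8 kb from Pdgfb, rose by 0.40 ± 0.11 in ImCD4 and 0.46 ± 0.11 in ImCD8 on the log2 scale (edgeR adjusted p = 0.0256 and 0.0173). Both calls of Rpl3 were lost under 5 of 20 alternatives, with an adjusted p of up to 0.152 in ImCD4 and 0.113 in ImCD8, and its counts may be shared with processed copies of the gene. Lipc, Cyp2b10, Aldh1a2 and Ell2, neighbours of Aqp9, Cyp2s1 and Pcsk1, averaged under 1 CPM in every group and were not tested. Antisense genes overlap Ntn4, Aqp9 and Pdgfb, and the lincRNA gene Gm26707 overlaps Cyp2s1 on the opposite strand. These are overlaps of whole gene spans, and exons were not compared. Since the strand setting of the counting is not stated, it is not known whether such overlaps affected the counts of the 4 genes. The same holds for Chdh and Cacna1d, which overlap on opposite strands.

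**Figure D4:**
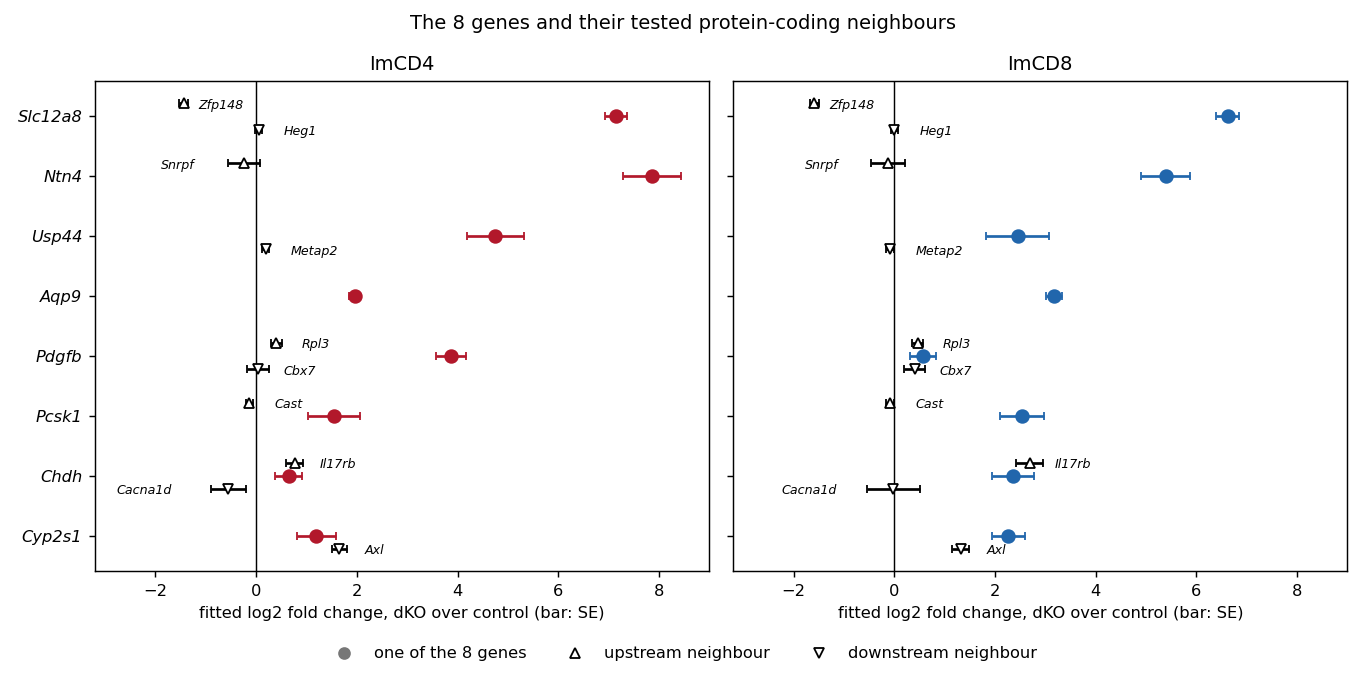
Fitted log2 fold changes of dKO over control, with bars of 1 SE, for the 8 genes (filled circles) and for their tested upstream and downstream protein-coding neighbours (open triangles), in ImCD4 and ImCD8. Il17rb and Axl lie to the right beside Chdh and Cyp2s1 in both panels, Zfp148 lies to the left of 0 beside Slc12a8, and Heg1, Snrpf, Metap2 and Cast lie near 0.

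Relatives of the 8 genes by family or pathway mostly did not pass. Over 8 lists, 46 genes were tested, of which 4 rose and 2 fell in dKO ImCD4 (8.7% and 4.35%, against 7.26% and 6.16% of all tested genes). In dKO ImCD8 none rose and 1 fell by edgeR (0% and 2.17%, against 2.62% and 3.53%), while 6 were higher and 5 lower at an unadjusted p under 0.05 and DESeq2 called 1 in each direction. These shares are near the background. Among the other Slc12 cotransporters 1 of 5 tested rose in ImCD4, Slc12a7, by 0.57 ± 0.12 on the log2 scale (SE, edgeR adjusted p = 0.00660). The list for Usp44 held genes of histone H2B ubiquitination and others such as Cetn2 and Cdc20. Of its 16 tested genes, the conjugating enzyme gene Ube2a rose by 0.29 ± 0.07 (edgeR adjusted p = 0.0193) and Cetn2 by 0.24 ± 0.07 (edgeR adjusted p = 0.0341) in ImCD4. Vegfb was the only tested gene of 11 in the list of growth factors and receptors related to Pdgfb and rose in ImCD4 by 0.71 ± 0.19 (edgeR adjusted p = 0.0229).

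Of the 5 tested genes in the list for Cyp2s1, Arnt, the partner of the aryl hydrocarbon receptor, fell in dKO ImCD4 with a log2 fold change of -0.49 ± 0.09 (SE, edgeR adjusted p = 0.00162). It fell in dKO ImCD8 with -0.66 ± 0.09 (edgeR adjusted p = 0.000208). Tiparp, a target of that receptor, fell in ImCD4 with -0.49 ± 0.12 (edgeR adjusted p = 0.0144). The receptor gene Ahr itself had log2 fold changes of 0.56 ± 0.21 and 0.64 ± 0.22 that did not pass (edgeR adjusted p = 0.0922 in ImCD4 and 0.114 in ImCD8). The median over the list was -0.40 in ImCD4 and -0.34 in ImCD8, beside 0.02 and 0.01 for all tested genes. Neither tested aquaporin gene, neither tested gene of the netrin list, none of 6 tested genes of the convertase list and none of 9 in choline metabolism passed edgeR's test in either population.

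Libraries of a group differed for these genes more in some places than in others. In dKO ImCD8, replicate 3 was the lowest of the 3 libraries for 7 of the 8 genes, all but Cyp2s1, where it was the highest, and 36.2% of all tested genes were lowest in that library. In dKO ImCD4, replicate 3 was lowest for 5 of the 8, against 39.7% of tested genes. Slc12a8 and Aqp9 differed little between libraries in dKO ImCD4, at 4.31% and 1.78% of the mean, and Pcsk1, Pdgfb and Cyp2s1 differed by 67.1%, 28.0% and 25.1%.

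Markers of other cells were read in the same libraries. In ImCD4 the 8 markers of gamma-delta and innate-like T cells summed to 279.6 to 377.8 CPM in dKO and 68.6 to 82.7 CPM in control, and 3 of the 5 tested rose: Sox13, Il2rb and Tcrg-C1. Their part in the differences of the 8 genes was not tested. In ImCD8 that sum was 430.3 to 474.5 CPM in dKO and 466.8 to 509.4 CPM in control, with no called member. The 8 markers of thymic epithelium summed to 106.6 to 118.8 CPM in dKO ImCD8 and 93.5 to 98.6 CPM in control ImCD8, mostly from Ly75 at 95.1 CPM in dKO and 85.9 CPM in control. Epcam of that list rose, at 16.1 ± 5.38 CPM in dKO and 8.93 ± 0.643 CPM in control ImCD8, with a log2 fold change of 0.85 ± 0.21 (SE, edgeR adjusted p = 0.0196), and its part in the differences of the 8 genes was not tested. The other 6, Krt5, Krt8, Foxn1, Psmb11, Aire and Cldn4, were each under 1 CPM in all 4 groups. The sums of the B cell, myeloid, and endothelial and mesenchymal markers overlapped between dKO and control in both populations. Those of the erythroid and platelet markers overlapped narrowly, with most of the dKO range above control. They were 16.17 to 24.35 CPM in dKO and 5.75 to 16.84 CPM in control ImCD4. In ImCD8 they were 50.37 to 81.41 CPM in dKO and 42.92 to 50.5 CPM in control. Car2 of the erythroid list rose in ImCD4 and Cd79b of the B cell list in ImCD8. The part of these changes in the differences of the 8 genes was not tested.

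The genes most like each of the 8 over the 12 libraries were taken by Pearson correlation of log2 CPM, leaving the 8 themselves out; the libraries share genotype and population, so the values are descriptions. Chdh was most like Il17rb (r = 0.991), its neighbour, and the purinergic receptor gene P2rx7 (0.990). Ntn4 was most like the adhesion receptor gene Cd44 and the clone-named AC122339.3 (both 0.977), and Slc12a8 was most like RP23-40C8.1 (0.985) and AC122339.3 (0.978). For Pcsk1 the value with Fbxl12 was 0.954. Usp44 was most like Slc25a11 (0.967) and Plscr3 (0.955), and Aqp9 most like Nrip1 (0.972) and Tnk2 (0.971). Pdgfb was most like Rgs3 (0.949) and Eif1a (0.947), and Cyp2s1 most like Dusp7 (0.973) and Nme4 (0.953). Among the 8 themselves Slc12a8 and Ntn4 ran most alike (0.986), followed by Pcsk1 and Cyp2s1 (0.902) and Aqp9 and Chdh (0.896), and Chdh and Cyp2s1 least alike (-0.228).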

How the data were processed

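RNA of sorted thymocytes was sequenced from low-input libraries. Cutadapt 1.18, STAR 2.6.1, HTSeq and the build mm10 are named, without roles, in the submitters' processing notes. No source used here states the annotation or the strand setting. The authors deposited raw counts per gene symbol. The 5 summary rows were left out of library sizes; reads outside any gene were 10.5% to 16.4% of the tally.

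The model was fitted with edgeR 4.0.16 (R 4.3.3): filterByExpr (minimum count 10, minimum total 15), TMM scaling, and 1 robust quasi-likelihood model of 4 group means over 12 libraries (8 residual degrees of freedom), two-sided, Benjamini-Hochberg adjusted over 13383 genes, threshold 0.05. Standard errors are the log2 fold change divided by the root of its F statistic. The fit was tested on simulated data. Ratios of summed counts carry exact binomial intervals. Titles gave the groups, and replicates were numbered by record order; nothing says that libraries came from separate mice, so p-values measure spread between libraries, which may be technical.

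The genes, lists and alternatives were chosen with earlier results of these data known. Named genes are the 8, Zfp148, Zfp281, nearest protein-coding neighbours, up to 3 called genes per list and contrast, the 2 most correlated genes of each of the 8 (1 of these is not reported here) and non-members that met the low-control, high-dKO limits. Alternatives were RLE scaling, library size only, DESeq2 1.42.0, other filters, only the 6 libraries compared, each library left out, the 4 libraries apart left out, and a model term for those 4. A planned test of the 8 genes between dKO ImCD8 and dKO ImCD4 is given as values only, because the dKO levels helped to choose them. The planned test between the control groups is kept, with the limit that low control levels also helped to choose the genes.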

Additional observations from a re-analysis of the deposited data

How the results depend on the processing

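The log2 fold changes of dKO against control kept their direction for the 8 genes under all of the 20 alternatives that gave a value. Usp44 in ImCD8 gave none with only the 6 libraries compared, where it failed the filter. Since the genes were picked for higher levels in these same dKO libraries, nothing is read from the kept direction. Between controls 3 to 4 of the 8 passed, and Slc12a8 (-0.53 to 0.21) and Usp44 (-0.27 to 0.86), which did not pass, had either sign. Il17rb and Axl passed under all 20 in both populations. With no filter 1280 genes were called in ImCD8 against 822, and with limits of 2 and 10 CPM 5 genes were near 0 in control and up in dKO ImCD4 against 3. Leaving out 1 library at a time, 1055 to 1953 genes were called in ImCD4, against 1797, with the lowest counts without dKO replicate 2 (1055) and control replicate 1 (1086). In ImCD8 473 to 883 were called, with the lowest without control replicate 1. Cbx7, beside Pdgfb, passed in ImCD8 with no filter and without control ImCD8 replicate 1 (adjusted p = 0.0292 and 0.0310). A model term for the 4 libraries apart, added after seeing the data, gave 2679 called genes in ImCD4 and 1420 in ImCD8, and Metap2 passed in ImCD4 (adjusted p = 0.0391). The causes were not tested. No paired analysis was possible because the labels give no replicate numbers shared by the groups. Depth limits Slc12a8, Ntn4 and Usp44 in control cells, where all rest on 12 counts or fewer per group.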
